A study of Mus musculus with 21 samples.

Results

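The genes described here are 65 mouse genes of the transforming growth factor beta (TGF-beta) and bone morphogenetic protein (BMP) pathways, chosen by their symbols from the 19296 named genes that the arrays measured. They comprise 18 BMP and growth differentiation factor (Gdf) ligands, 7 TGF-beta and activin or inhibin subunits, 12 receptors, 8 Smads, 4 Id proteins, 10 secreted antagonists and follistatin relatives, and 4 latent TGF-beta binding proteins. Another 2, Bmp1 and Bmp2k, were matched by name but are not ligands, since Bmp1 is a secreted protease and Bmp2k an intracellular kinase. Each gene had 1 probe set. Gdf1, Gdf15 and Inhbd are not analysed here.

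Affymetrix arrays measured RNA from embryonic pancreas on 4 consecutive days, E12.5 to E15.5, in mice of a mixed C57-Bl6, SV129 and CD1 background. Cells of each day were sorted for a fusion of the endoderm transcription factor Foxa2 with the fluorescent protein Venus, so positive (FVF+) and negative (FVF-) cells came from the same reporter line. The FVF- groups held 2, 2, 3 and 3 arrays over the 4 days and the FVF+ groups 3, 2, 3 and 3, which makes 21 arrays. Whether mice carried 1 or 2 copies of the fusion allele is not stated in the labels. The design text calls the replicates biological but does not tie them to separate embryos or litters, so each p-value reflects the spread among these samples alone, and precision is limited by how few arrays there are.

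Ligands of this superfamily bind pairs of type I and type II receptors on the cell surface, and the type I receptor phosphorylates receptor Smads. Smad1, Smad5 and Smad9 carry BMP signals and Smad2 and Smad3 carry TGF-beta, activin and nodal signals, all with the shared partner Smad4, whereas Smad6 and Smad7 inhibit. In the developing pancreas, activin-type signals take part in the choice between endocrine and exocrine fates, and signals pass between the epithelium and the surrounding mesenchyme. The Id genes, which encode inhibitors of basic helix-loop-helix transcription factors, are classical direct targets of BMP Smads.

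As targets of BMP Smads the Id genes are of interest here, and the 250 bases before the RefSeq transcription start of Id2, Id3 and Id4 are shown for that reason (no such sequence was used for Id1). Whether their RNA levels follow BMP signalling in these cells was not tested. In the GRCm38.p6 build they lie at chr12:25096093-25096342 on the minus strand for Id2, at chr4:136143572-136143821 on the plus strand for Id3 and at chr13:48260866-48261115 on the plus strand for Id4. Each is written 5′ to 3′ on the strand of the gene, upstream of exon 1. Capitals mark GGCGCC, a GC-rich Smad-binding sequence, and GTCT or its reverse complement AGAC, the Smad box.
Id2: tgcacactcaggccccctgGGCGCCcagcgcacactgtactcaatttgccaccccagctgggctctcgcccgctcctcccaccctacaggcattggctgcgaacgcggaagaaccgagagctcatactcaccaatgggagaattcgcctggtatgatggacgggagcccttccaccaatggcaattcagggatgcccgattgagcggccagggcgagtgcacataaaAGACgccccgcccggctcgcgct
Id3: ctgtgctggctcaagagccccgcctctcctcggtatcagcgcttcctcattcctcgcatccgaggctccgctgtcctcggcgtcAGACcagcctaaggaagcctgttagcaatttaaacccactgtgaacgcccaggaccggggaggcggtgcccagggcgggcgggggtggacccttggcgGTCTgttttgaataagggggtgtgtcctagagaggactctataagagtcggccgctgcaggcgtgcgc
Id4: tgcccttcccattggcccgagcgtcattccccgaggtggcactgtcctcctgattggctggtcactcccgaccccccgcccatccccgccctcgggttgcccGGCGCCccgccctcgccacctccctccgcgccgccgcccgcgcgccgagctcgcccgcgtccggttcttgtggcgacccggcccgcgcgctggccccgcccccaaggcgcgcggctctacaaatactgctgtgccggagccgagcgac
Within these windows Id2 held 1 GGCGCC and 1 AGAC, Id3 held 2 Smad boxes and 0 GGCGCC, and Id4 held 1 GGCGCC and 0 Smad boxes. Of the 46 members with a RefSeq window, 9 (19.6%) held GGCGCC on either strand, against 2577 of 27025 genes (9.54%). They were Bmp2k, Bmpr1a, Bmpr2, Chrd, Grem1, Id2, Id4, Smad9 and Tgfbr1. The members' windows had a median GC content of 65.6% and all windows 52.0%, and the part of base composition in the motif count was not tested. GTCT, which is short and also lies inside CAGACA, was found in 82.6% of the members' windows and 83.0% of all windows, and CAGACA in 15.2% and 17.1%. A match is a string of letters and was not tied to binding in these data.

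All values below are log2 signals as deposited, after robust multi-array averaging (RMA), and a difference of 1 log2 unit is a 2-fold difference. A gene was called where the adjusted p of limma, a linear model with moderated errors fitted to all genes, was under 0.05. Foxa2 itself was 2.91 ± 0.10 log2 units (SE) higher in FVF+ cells over the 4 days (adjusted p = 1.9e-14). A mean over 10 mesenchyme markers lay between 11.56 and 12.53 on the FVF- arrays and between 7.88 and 9.33 on the FVF+ arrays. A mean over 8 epithelial markers lay between 12.56 and 12.97 on FVF+ and between 8.30 and 9.94 on FVF- arrays. FVF- cells also carried endothelial markers (10.06 to 11.49, against 7.42 to 9.29 in FVF+) and macrophage markers (9.84 to 11.03, against 7.40 to 8.47). In bulk samples such as these, fewer cells of a type and less RNA per cell cannot be told apart. At E12.5, FVF+ replicate 1 had more mesenchyme signal (9.17) than the other replicates of its group (8.09 and 7.88). FVF+ replicate 2 of E13.5 and of E14.5 had the highest endothelial signals of that sort (9.29 and 9.22), and FVF- replicate 3 of E14.5 the highest epithelial signal (9.94). Leaving these 4 arrays out together, an alternative chosen after seeing the data, left the count of members called between the sorts at 49.

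What distinguished FVF+ from FVF- cells was addressed by averaging the sort differences of the 4 days. More members had lower than higher RNA signals in the Foxa2-Venus cells: 34 of the 65 were lower in FVF+ cells, 15 were higher and 16 were not called. Together 49 members, or 75.4%, were called, where 55.7% of all genes were, with 30.5% of all genes higher and 25.2% lower. The median difference over the members was -0.18 log2 units, against 0.03 over all genes. The plot of sort differences by role shows that Tgfb1, Tgfb2 and Tgfb3, 3 of the 4 latent binding proteins and the receptors Tgfbr2 and Tgfbr3 lay on the FVF- side. On all arrays, 6 members were higher in every FVF+ array than in any FVF- array (7.81% of all genes), and 17 were lower (9.36% of all genes). By day, 39 members were called at E12.5 (10 higher and 29 lower, against 17.2% and 18.7% of all genes, 35.9% together) and 36 at E13.5 (11 higher and 25 lower, against 15.8% and 15.2%, 30.9% together). At E14.5 there were 44 (12 higher and 32 lower, against 23.1% and 21.5%, 44.6% together), and at E15.5 42 (13 higher and 29 lower, against 24.4% and 19.5%, 43.9% together). Called higher on each of the 4 days were 9 members (9.22% of all genes), and called lower on each of the 4 days were 19 (10.6%).

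**Figure D1:**
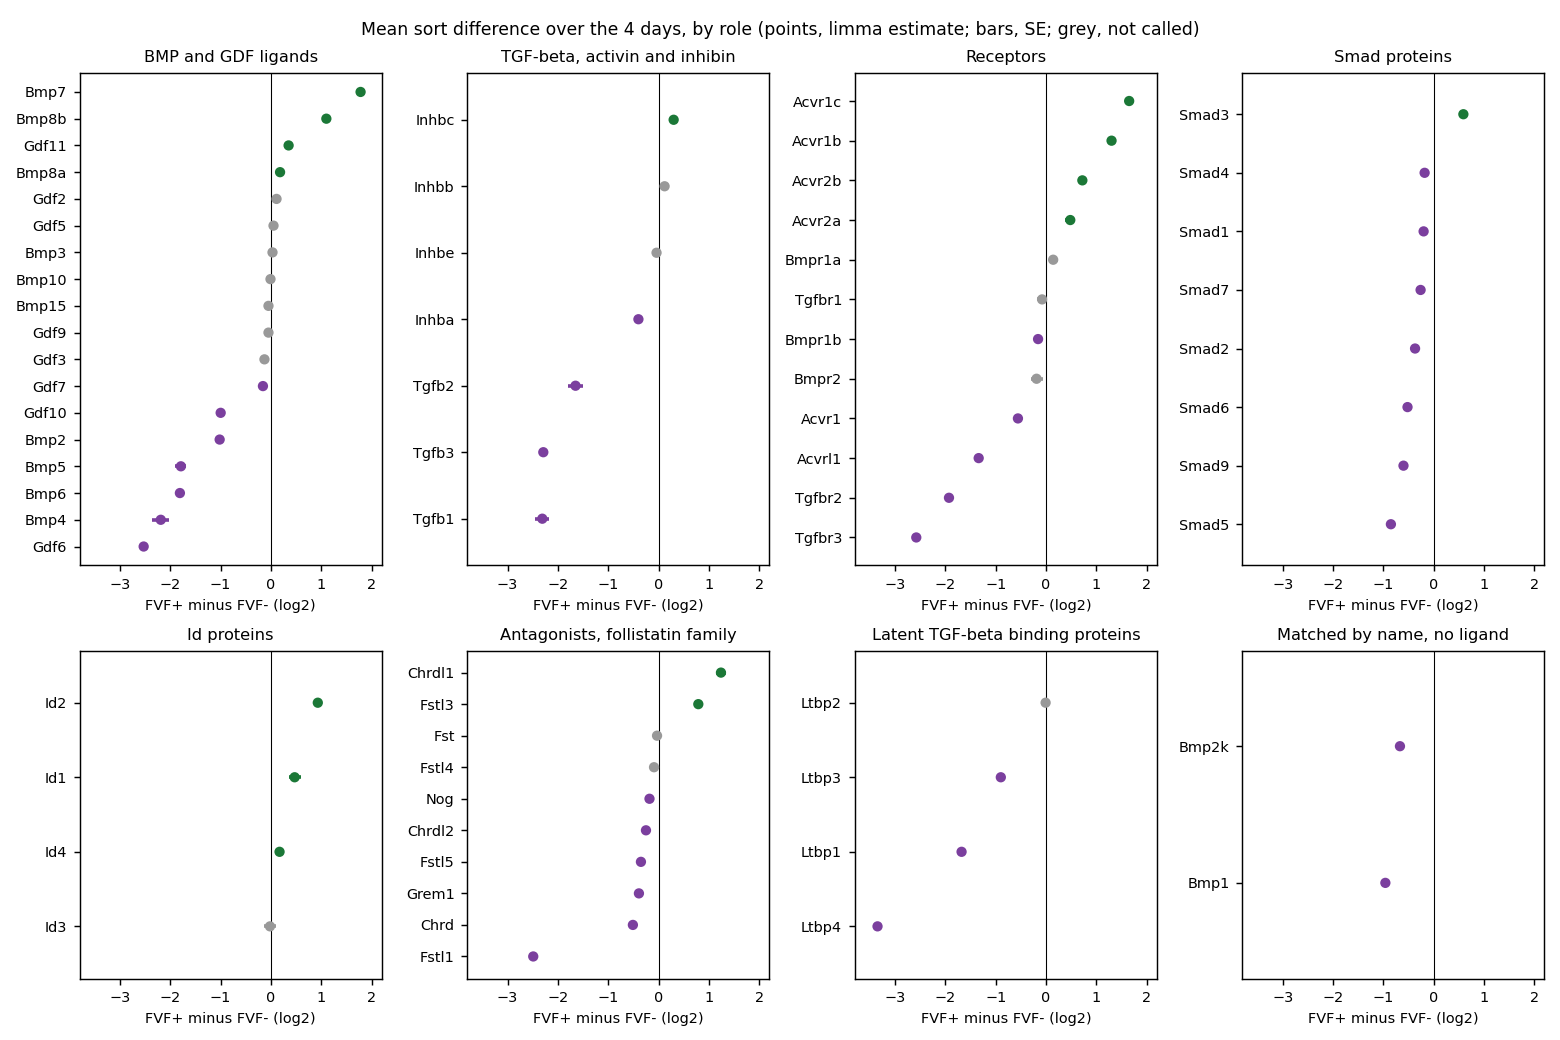
Mean difference between FVF+ and FVF- over the 4 days for each of the 65 genes (horizontal axis, log2; points, limma estimate; bars, SE), in 8 panels by role. Green genes were called higher in FVF+, purple genes lower, and grey genes were not called; Ltbp4 (-3.35) lies farthest to the left and Bmp7 (1.78) farthest to the right.

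Among the 18 BMP and Gdf ligands, 7 were lower in FVF+ cells, 4 were higher and 7 were not called, and the median difference was -0.05. The share called was 61.1%, near the 55.7% of all genes. Gdf6, a ligand known from skeletal and eye development, ranged from 7.06 to 8.20 over the 11 FVF+ arrays (median 7.33) and from 9.11 to 10.73 over the 10 FVF- arrays (median 9.70). Bmp4, a morphogen of many embryonic mesenchymes, ranged from 7.50 to 9.30 in FVF+ (median 7.82) and from 9.48 to 11.29 in FVF- (median 10.25). Bmp6 ranged from 7.85 to 8.80 in FVF+ (median 8.41) and from 9.18 to 10.88 in FVF- (median 10.48). No FVF+ array reached the lowest FVF- array for any of these ligands. For Bmp4 the highest FVF+ array (9.30, of E13.5) came close to the lowest FVF- array (9.48, of E14.5). At E13.5 itself the lower FVF- array read 10.39 for Bmp4. Gdf6 was lower in FVF+ by -2.53 ± 0.08 log2 units (SE, adjusted p = 9.6e-15), Bmp4 by -2.19 ± 0.17 (2.2e-09), Bmp6 by -1.81 ± 0.07 (2.2e-13) and Bmp5 by -1.79 ± 0.11 (7.2e-11). Smaller differences in the same direction were called for Bmp2 (-1.02), Gdf10 (-1.0) and Gdf7 (-0.16). The Gdf7 call was lost without FVF- E12.5 replicate 1 (adjusted p = 0.0562) or FVF+ E13.5 replicate 1 (0.0627).

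Bmp7 ran the other way. This ligand, made by many epithelia, ranged from 11.81 to 12.52 over the FVF+ arrays (median 12.37) and from 10.11 to 10.88 over the FVF- arrays (median 10.46). The groups did not overlap, and Bmp7 was 1.78 ± 0.07 log2 units higher in FVF+ cells (adjusted p = 1.1e-13), with daily differences of 1.90, 1.79, 1.68 and 1.76. Bmp8b was higher by 1.10 ± 0.06 (2.2e-11), Gdf11 by 0.35 ± 0.05 (9.1e-06) and Bmp8a by 0.18 ± 0.05 (0.00263). The 7 ligands that were not called had differences from -0.13 (Gdf3) to 0.11 (Gdf2), with Bmp15, Gdf9, Bmp10, Bmp3 and Gdf5 between them. Of all 18 ligands, 9 had no group mean above 8.77, the median of all values: Bmp2, Bmp3, Bmp8a, Bmp10, Bmp15, Gdf2, Gdf3, Gdf5 and Gdf9.

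All 3 TGF-beta ligands were lower in FVF+ cells, where 25.2% of all genes were lower. Tgfb1 ranged from 8.02 to 9.50 in FVF+ (median 8.75) and from 10.53 to 11.74 in FVF- (median 11.01). Tgfb3 ranged from 7.66 to 8.84 in FVF+ (median 8.25) and from 9.85 to 11.04 in FVF- (median 10.71). Tgfb2 ranged from 7.66 to 8.97 in FVF+ (median 8.61) and from 9.59 to 10.82 in FVF- (median 9.96). The sorts did not overlap for any of the 3 genes. The differences were -2.31 ± 0.14 for Tgfb1 (adjusted p = 4.5e-11), -2.29 ± 0.08 for Tgfb3 (2.7e-14) and -1.65 ± 0.14 for Tgfb2 (5.6e-09). Inhba, the activin A subunit, was lower by -0.40 ± 0.05 (6.5e-07) and Inhbc was higher by 0.30 ± 0.06 (0.00018). Inhbb, the activin B subunit (0.12 ± 0.06, adjusted p = 0.0861), and Inhbe (-0.04) were not called. All 4 activin and inhibin subunits had group means at or below 8.77.

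The receptors divided between the sorts, with 4 higher in FVF+ cells, 5 lower and 3 not called, and a median of -0.12. The share called was 75%, against 55.7% of all genes. The receptors that bind TGF-beta itself were lower in FVF+ cells, apart from Tgfbr1. Tgfbr3, or betaglycan, a co-receptor that presents TGF-beta, ranged from 8.74 to 9.34 in FVF+ (median 8.95) and from 11.42 to 11.89 in FVF- (median 11.52). Tgfbr2, the type II receptor of TGF-beta, ranged from 8.94 to 9.53 in FVF+ (median 9.26) and from 10.72 to 11.43 in FVF- (median 11.32). Neither gene overlapped between the sorts, and the differences were -2.58 ± 0.07 for Tgfbr3 (adjusted p = 2.1e-15) and -1.93 ± 0.06 for Tgfbr2 (4e-15). Acvrl1, a type I receptor best known from endothelium, was lower by -1.34 ± 0.09 (1.7e-10) and Acvr1, a BMP type I receptor, by -0.56 ± 0.04 (1.6e-10). The smallest called difference was that of Bmpr1b (-0.16 ± 0.06, adjusted p = 0.0364), which was lost after cyclic loess normalization (0.0635) and in 11 of the fits that each left out 1 array.

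The activin-type receptors were higher in FVF+ cells. Acvr1c, or ALK7, a type I receptor of nodal and activin B known from islets, ranged from 6.95 to 9.23 in FVF+ (median 8.69) and from 6.22 to 6.86 in FVF- (median 6.51). Acvr1b, or ALK4, the main activin type I receptor, ranged from 10.50 to 11.18 in FVF+ (median 10.69) and from 9.31 to 9.80 in FVF- (median 9.51). No FVF- array reached the lowest FVF+ array of either gene. The differences were 1.65 ± 0.09 for Acvr1c (adjusted p = 1e-11), 1.30 ± 0.05 for Acvr1b (1.6e-13), 0.72 ± 0.07 for the type II receptor Acvr2b (4.4e-08) and 0.48 ± 0.10 for the type II receptor Acvr2a (0.00037). The type I receptors Tgfbr1 (-0.08 ± 0.10) and Bmpr1a (0.14 ± 0.09) and the BMP type II receptor Bmpr2 (-0.19 ± 0.12) were not called as means over the days.

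All 8 Smads were called, 7 of them lower in FVF+ cells, with a median of -0.31. Of all genes 55.7% were called and 25.2% were lower. Smad3 alone was higher: it ranged from 11.64 to 12.04 in FVF+ (median 11.87) and from 10.93 to 11.58 in FVF- (median 11.22), without overlap, a difference of 0.59 ± 0.05 (adjusted p = 1.6e-09). The other activin and TGF-beta Smad, Smad2, was lower by -0.37 ± 0.05 (5.2e-06). Among the BMP Smads, Smad5 ranged from 10.40 to 11.44 in FVF+ (median 11.11) and from 11.21 to 12.58 in FVF- (median 11.82), and the ranges overlapped. Smad9 ranged from 7.69 to 8.24 in FVF+ (median 7.87) and from 8.40 to 8.68 in FVF- (median 8.53), without overlap but with both sorts below 8.77. Smad5 was lower by -0.85 ± 0.07 (2.4e-09), Smad9 by -0.60 ± 0.05 (2.2e-09) and Smad1 by -0.20 ± 0.05 (0.00091). The inhibitory Smad6 (-0.52 ± 0.07, 4.2e-06) and Smad7 (-0.26 ± 0.06, 0.00049) and the shared Smad4 (-0.18 ± 0.04, 0.00087) differed in the same direction.

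Among the Id genes whose promoters are printed above, Id2 and Id4 were higher in FVF+ cells and Id3 was not called, and Id1 was higher. Of all genes 30.5% were called higher. Id2 ranged from 12.32 to 13.64 in FVF+ (median 13.34) and from 12.08 to 12.58 in FVF- (median 12.31). Id1 ranged from 10.35 to 11.54 in FVF+ (median 11.26) and from 10.44 to 10.99 in FVF- (median 10.75). Id3 ranged from 10.04 to 11.10 in FVF+ (median 10.48) and from 9.93 to 10.99 in FVF- (median 10.54). The sorts overlapped for all 4 Id genes, and for Id1 and Id2 the overlap came from replicate 1 of FVF+ at E15.5, which read 10.35 for Id1 and 12.32 for Id2 where the other replicates read 11.47 and 11.54 for Id1 and 13.09 and 12.96 for Id2. The differences were 0.93 ± 0.08 for Id2 (adjusted p = 1.4e-08), 0.47 ± 0.12 for Id1 (0.00338), 0.17 ± 0.06 for Id4 (0.0185) and -0.02 ± 0.11 for Id3 (0.899). Id2 was called on each of the 4 days, whereas Id1 and Id4 were called at E14.5 only, and each of those E14.5 calls was lost in several alternatives. The mean difference of Id4 was no longer called without the E13.5 arrays (0.14, adjusted p = 0.0868).

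Secreted antagonists were more often lower (6) than higher (2) in FVF+ cells, with 2 not called and a median of -0.22. The share called was 80%, against 55.7% of all genes (30.5% higher and 25.2% lower). Fstl1, a secreted follistatin relative of mesenchyme, ranged from 10.24 to 11.67 in FVF+ (median 10.77) and from 13.09 to 13.61 in FVF- (median 13.52). The sorts lay far apart, and Fstl1 was lower in FVF+ by -2.49 ± 0.07 (adjusted p = 3.3e-15). Chrdl1, a chordin-like BMP antagonist, ranged from 8.04 to 9.66 in FVF+ (median 8.77) and from 7.27 to 8.06 in FVF- (median 7.60). Fstl3, an activin-binding protein, ranged from 9.68 to 10.28 in FVF+ (median 9.94) and from 8.80 to 9.57 in FVF- (median 9.29). These were the 2 antagonists that were higher, Chrdl1 by 1.24 ± 0.10 (5.9e-09) with a slight overlap of the sorts and Fstl3 by 0.79 ± 0.06 (2e-09) without overlap. The classical BMP antagonists differed less, chordin (Chrd) by -0.51 ± 0.06 (6e-07), gremlin (Grem1) by -0.39 ± 0.06 (7.7e-06) and noggin (Nog) by -0.18 ± 0.05 (0.00198), all with group means below 8.77. Fstl5 (-0.35) and Chrdl2 (-0.25) were also lower, and Fstl4 (-0.09) and Fst, or follistatin (-0.03), were not called. The Fstl5 call was lost without the E13.5 arrays (-0.20, adjusted p = 0.0791).

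The latent TGF-beta binding proteins, some of which tether inactive TGF-beta to the matrix, held the largest difference of all 65 genes. Ltbp4 ranged from 8.24 to 9.26 in FVF+ (median 8.81) and from 11.54 to 12.77 in FVF- (median 12.48), and was lower in FVF+ by -3.35 ± 0.09 (adjusted p = 2.9e-15), a 10.2-fold difference. Ltbp1 ranged from 8.28 to 9.67 in FVF+ (median 8.96) and from 10.16 to 11.03 in FVF- (median 10.58). Ltbp3 ranged from 9.94 to 11 in FVF+ (median 10.23) and from 10.90 to 11.79 in FVF- (median 11.46), with a small overlap. Ltbp1 was lower by -1.68 ± 0.09 (1.2e-11) and Ltbp3 by -0.90 ± 0.07 (9.7e-10), whereas Ltbp2 (-0.01) was not called and stayed below 8.77. The protease Bmp1 ranged from 11.51 to 12.12 in FVF+ (median 11.71) and from 12.62 to 12.89 in FVF- (median 12.70). The kinase Bmp2k ranged from 8.51 to 9.64 in FVF+ (median 9.26) and from 9.50 to 10.21 in FVF- (median 9.79). Bmp1 was lower by -0.96 ± 0.06 (3.6e-11) and Bmp2k by -0.67 ± 0.07 (1.9e-07). All 10 mesenchyme, 7 endothelial and 7 macrophage markers were also lower in FVF+ cells, and their part in the differences of these genes was not tested.

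Whether the Foxa2-Venus cells changed their pathway genes as the pancreas grew was asked by setting E15.5 against E12.5 within FVF+. Acvr1c rose most and Bmpr2, Gdf11, Bmp8b and Chrdl1 fell most. Of the 65 members, 25 rose, 18 fell and 22 were not called, so that 66.2% were called, where 46.9% of all genes were (27.6% higher and 19.3% lower). The split into higher and lower depended on the signal level and on the scaling. Among the 23 members at or below 8.77 in every group, 15 rose and 0 fell (16 and 0 at an unadjusted p under 0.05, median 0.31), and over all 7889 genes of that kind 2648 rose and 417 fell (median 0.17). Among the 42 brighter members, 10 rose and 18 fell (median -0.27), and over all 11407 brighter genes 2669 rose and 3314 fell (median -0.03). After quantile normalization 14 members rose and 18 fell, and after cyclic loess normalization 12 rose and 17 fell. Over all 19296 genes 5317 rose and 3731 fell as deposited. After quantile normalization 3778 of them rose and 3531 fell, and after cyclic loess normalization 3769 and 3530. Called in all 3 versions of the values were 29 members, 12 higher and 17 lower, and the genes named as changed in the next paragraphs are from these 29 unless stated. The cause of the level dependence was not tested.

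**Figure D2:**
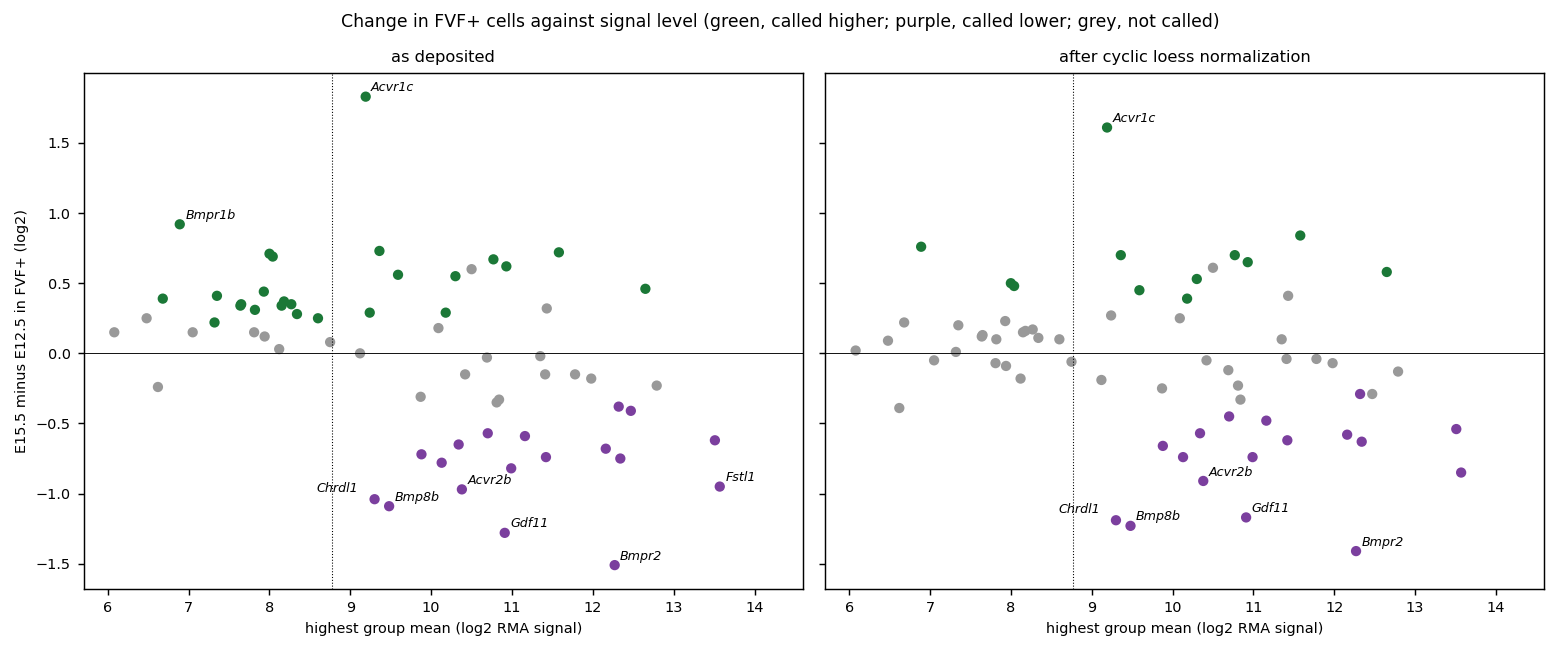
Change of each of the 65 genes from E12.5 to E15.5 in FVF+ cells (vertical axis, log2) against its highest group mean (horizontal axis, log2 RMA signal), with the values as deposited on the left and after cyclic loess normalization on the right. Green genes were called higher, purple genes lower and grey genes were not called, and the dotted line marks 8.77; the 15 dim genes called higher on the left are mostly grey on the right, while Acvr1c and Bmpr2 stay at the extremes.

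Acvr1c read 7.64, 7.10 and 7.32 on the FVF+ arrays of E12.5 and 7.41 and 6.95 at E13.5, then 9.07, 8.69 and 9.16 at E14.5 and 9.18, 9.23 and 9.15 at E15.5. In FVF- cells the same gene read 6.45 and 6.49, then 6.38 and 6.43, then 6.22, 6.60 and 6.86, and last 6.53, 6.77 and 6.72. The FVF+ arrays thus fell into a low pair of days and a high pair of days, and the FVF- arrays stayed low throughout. The FVF+ change was 1.83 ± 0.16 log2 units (adjusted p = 2.6e-07), and the step from E13.5 to E14.5 alone was 1.79 ± 0.18 (1.2e-05). The mean of 9 endocrine markers in FVF+ moved over the same days, from 11.01 to 11.46 at E12.5 and 11.04 to 11.65 at E13.5 to between 12.85 and 13.29 at E14.5 and 12.88 and 12.95 at E15.5. The mean of 8 acinar markers in FVF+ moved with them, from between 10.38 and 10.85 on the arrays of the first days to between 12.11 and 12.36 at E14.5 and 12.78 and 12.84 at E15.5. Of the 9 endocrine markers 6 were called higher at E15.5 than at E12.5, and of the 8 acinar markers 6, and their part in the Acvr1c result was not tested.

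Over all 12 receptors in FVF+ cells, 3 were called higher, with Acvr1c among them, 6 lower and 3 not. The share called was 75%, against 46.9% of all genes. Bmpr2 read 12.23, 12.23 and 12.20 at E12.5, 12.15 and 12.29 at E13.5, 11.59, 10.90 and 11.81 at E14.5 and 10.79, 10.76 and 10.57 at E15.5. In FVF- cells Bmpr2 read 11.91 and 11.85, then 11.82 and 12.71, then 11.18, 11.78 and 11.65, and last 11.40, 11.83 and 11.75. The change of Bmpr2 in FVF+ was -1.51 ± 0.22 (adjusted p = 4.6e-05). Between the sorts Bmpr2 was not called at E12.5 (0.34 ± 0.25, adjusted p = 0.307) and was lower in FVF+ at E15.5 (-0.95 ± 0.22, 0.00161). Acvr2b changed by -0.97 ± 0.13 (2e-05), Tgfbr1 by -0.74 ± 0.19 (0.00413), and Bmpr1a by -0.68 ± 0.17 (0.00358), and Acvr2a and Acvr1b were called lower as well. Bmpr1b rose by 0.92 ± 0.11 (7.9e-06) from a signal near 6, and Acvrl1 rose by 0.55 ± 0.16 (0.0112), a call lost without FVF+ E12.5 replicate 3 (0.0547). Tgfbr2 and Tgfbr3 (each -0.15) and Acvr1 were not called.

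Of the ligands in FVF+ cells, Gdf11 and Bmp8b fell and Gdf7, Bmp3, Bmp6, Gdf10, Tgfb3 and Inhbb rose. Gdf11, a ligand that acts through activin receptors and restrains endocrine progenitors in mouse, changed by -1.28 ± 0.09 (adjusted p = 2.3e-08) and Bmp8b by -1.09 ± 0.12 (1.8e-06). Gdf7 changed by 0.73 ± 0.10 (3.5e-05), Bmp3 by 0.69 ± 0.11 (8.1e-05), Bmp6 by 0.67 ± 0.14 (0.00082) and Gdf10 by 0.56 ± 0.13 (0.00193). By count 8 BMP and Gdf ligands were called higher, 3 lower and 7 not, and in all 3 versions of the values 4 were called higher and 2 lower. As deposited the share called was 61.1%, against 46.9% of all genes. The change of Bmp7 was -0.41 ± 0.13 (0.0148), which was lost after cyclic loess normalization (-0.29, 0.0565) and without FVF+ E12.5 replicate 3 (0.0667) or E15.5 replicate 1 (0.0707). The largest ligand changes that were not called were those of Bmp4 (-0.33 ± 0.32) and Bmp15 (0.25). Bmp4 varied widely between replicates, at 8.99, 7.76 and 7.5 at E12.5 and 8.63 and 9.30 at E13.5, and its highest E12.5 value came from the array with the most mesenchyme signal. Inhbb rose by 0.71 ± 0.10 (4.9e-05) and Tgfb3 by 0.62 ± 0.14 (0.00242), while Tgfb2 (0.60 ± 0.25, 0.0618) and Tgfb1 (0.32 ± 0.25, 0.308) were not called. In FVF+ cells 5 of 10 mesenchyme markers were also called higher and 0 lower from E12.5 to E15.5 (median 0.53). Their mean read 9.17, 8.09 and 7.88 at E12.5 and between 8.96 and 9.24 at E15.5. Bmp6, Gdf10, Tgfb3, Acvrl1, Ltbp3 and Ltbp4, which rose, were lower in FVF+ than in FVF- cells and also rose in FVF-. Other genes lower in FVF+ fell, Fstl1, Ltbp1 and Smad5 among them. The part of the mesenchyme signal in these changes was not tested.

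Inside the cell, Smad5 changed by -0.75 ± 0.12 (adjusted p = 0.00015), Smad7 by -0.72 ± 0.10 (3.5e-05), Smad2 by -0.57 ± 0.09 (0.00015) and Smad4 by -0.38 ± 0.08 (0.00068) in FVF+ cells, and Smad1 rose by 0.29 ± 0.08 (0.0096). Smad9 was called at 0.25 ± 0.09 in the values as deposited only. Smad6 (-0.31, 0.0608) and Smad3 (-0.18, 0.0905) were not called. Id2 changed by -0.62 ± 0.15 (0.00355), or by -0.39 without FVF+ E15.5 replicate 1 (0.0178), the array that read low for Id1 and Id2. Id4 (0.29 ± 0.11, 0.0333) was not called after cyclic loess normalization (0.0558) or without any of 4 of the arrays. Id3 (-0.35, 0.171) and Id1 (-0.02) were not called.

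Of the extracellular proteins in FVF+ cells, Chrdl1 changed by -1.04 ± 0.19 (adjusted p = 0.00036) and Fstl1 by -0.95 ± 0.13 (2.4e-05). The 5 antagonists called higher (Grem1 0.44, Fstl4 0.37, Chrdl2 0.34, Fst 0.31 and Nog) were all at signals at or below 8.77, and none was called after cyclic loess normalization. Fstl5 (-0.24) and Fstl3 (0.18) were the largest changes not called. Ltbp1 changed by -0.82 ± 0.17 (0.00098) and Ltbp3 rose by 0.72 ± 0.12 (0.00019). Ltbp4 rose by 0.46 ± 0.17 (0.0349), a call lost without FVF+ E12.5 replicate 2 or 3 or E15.5 replicate 2 (0.30 without the last). Ltbp2 (0.34) was called in the values as deposited only. Bmp2k changed by -0.78 ± 0.13 (0.00019) and Bmp1 (-0.23) was not called.

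The same question was asked of FVF- cells, where 12 members rose, 6 fell and 47 were not called between E12.5 and E15.5. The share called was 27.7%, where 20.4% of all genes were called (10.7% higher and 9.70% lower), and the median change was 0.07, against 0.00 over all genes. Marker lists moved in FVF- over the same days, with 6 of 8 acinar markers called higher (median 1.45). So were 3 of 4 mesothelium (0.88), 3 of 5 smooth muscle (0.61), 3 of 7 macrophage (0.77) and 3 of 8 epithelial markers (0.71). Of 10 mesenchyme markers 5 were called higher and 1 lower (median 0.67). Of 5 red blood cell markers 3 were called lower and 1 higher (median -1.99). The part of these lists in the changes of the members was not tested. Bmp2 (1.26 ± 0.17, adjusted p = 6.1e-05), Bmp6 (1.17 ± 0.15, 3.8e-05) and Gdf10 (1.16 ± 0.14, 2.3e-05) rose and Gdf6 fell (-1.47 ± 0.16, 8.7e-06). Bmp2 read 6.70 and 7.02 at E12.5 and between 7.99 and 8.33 at E15.5 in FVF- cells, below the overall median throughout. The change of Bmp4 (-1.01 ± 0.35, 0.052) was not called. Tgfb3 rose by 0.86 ± 0.16 (0.00097) and Inhba by 0.62 ± 0.10 (0.00021), and Tgfb2 (-0.63 ± 0.28, 0.131) and Tgfb1 (0.46 ± 0.28, 0.302) were not called.

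Among the receptors of FVF- cells, Acvrl1 rose by 0.94 ± 0.18 (adjusted p = 0.00127) and Tgfbr2 by 0.68 ± 0.11 (0.00037), and Acvr2b changed by -0.62 ± 0.14 (0.00477). The mean of 7 endothelial markers in FVF- read 10.06 and 10.35 at E12.5 and 11.23, 10.65 and 11.49 at E15.5, with 3 of the 7 called higher, and its part in the change of Acvrl1, an endothelial receptor, was not tested. Bmpr1a (-0.46, 0.097) and Acvr2a (-0.36) were not called. Smad5 changed by -0.78 ± 0.14 (0.00059) and Smad3 by -0.52 ± 0.09 (0.00072), and Id4 rose by 0.56 ± 0.12 (0.00302). Ltbp4 rose by 1.09 ± 0.19 (0.00057) and Ltbp3 by 0.66 ± 0.14 (0.0024), and Ltbp1 changed by -0.72 ± 0.19 (0.0115). Fstl3 rose by 0.54 ± 0.13 (0.00528), Fstl4 changed by -0.70 ± 0.15 (0.0024), and Fstl1 was called at 0.42 ± 0.14 (0.0483) but not after quantile normalization (0.065). With 2 arrays at E12.5 several of these calls depended on 1 array. Those of Acvr2b, Fstl3, Fstl4, Ltbp1 and Fstl1 were lost without FVF- E12.5 replicate 2, and those of Id4, Ltbp1 and Fstl1 without replicate 1.

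Whether the sorts changed differently was tested as an interaction, the FVF+ change from E12.5 to E15.5 minus the FVF- change. It was called for 22 members, 10 with a more positive change in FVF+ and 12 with a more negative change, or 33.8% of the members where 19.6% of all genes were called (10.8% positive and 8.83% negative). The median was -0.14 over the members and 0.07 over all genes. After quantile and cyclic loess normalization 18 of the 22 were still called, all but Bmp3, Inhbe, Nog and Smad7. Without FVF- E12.5 replicate 2 the count was 12, and without the 4 arrays with high marker signals it was 20. The plot of the change in either sort shows 4 genes farthest from equal change, Acvr1c, Gdf6, Fstl1 and Bmpr2.

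**Figure D3:**
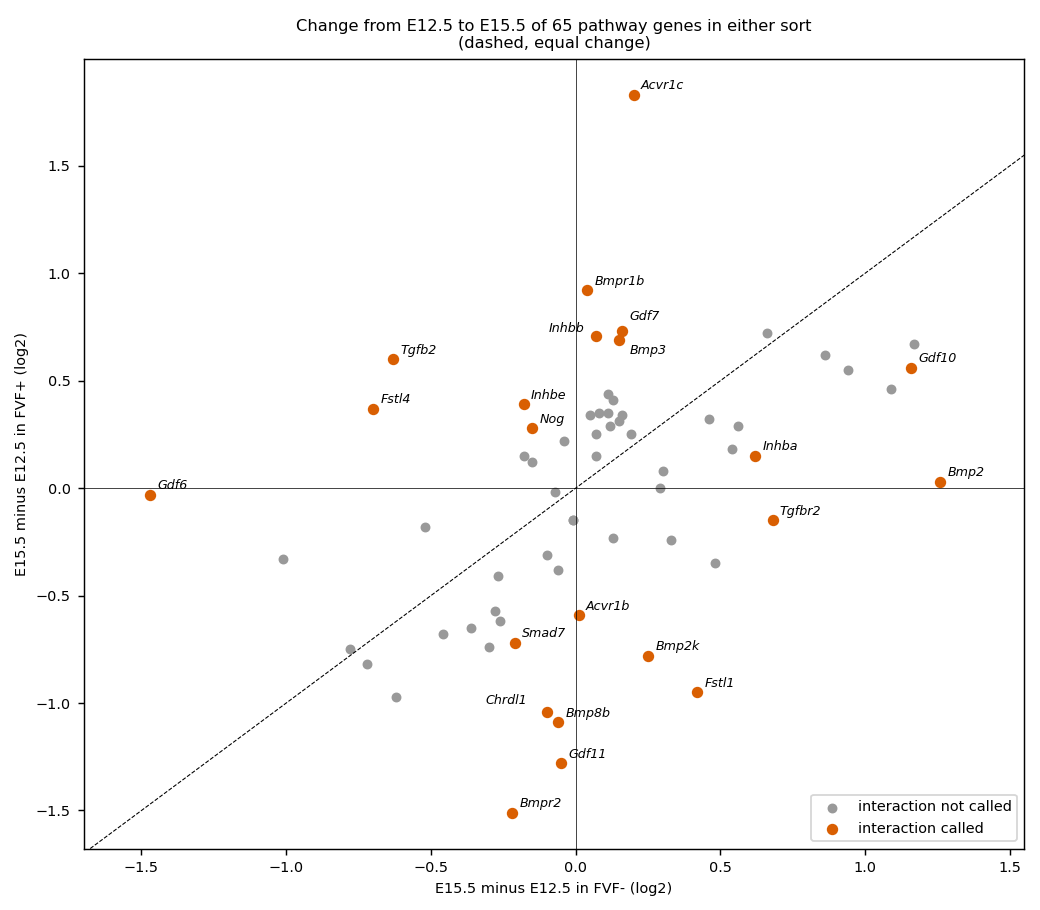
Change of each of the 65 genes from E12.5 to E15.5 in FVF- cells (horizontal axis, log2) and in FVF+ cells (vertical axis, log2). The dashed line marks equal change, and the 22 orange genes had a called interaction; Acvr1c lies at the top, Bmpr2 at the bottom and Gdf6 at the far left.

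Acvr1c had an interaction of 1.63 ± 0.25 (adjusted p = 0.00023), the FVF+ rise described above with no called change in FVF-. Gdf6 read 10.64 and 10.73 in FVF- cells at E12.5, 10.55 and 10.72 at E13.5, 9.72, 9.68 and 9.64 at E14.5 and 9.11, 9.26 and 9.29 at E15.5. In FVF+ cells Gdf6 read 7.84, 7.06 and 7.33, then 7.92 and 8.20, then 7.22, 7.28 and 7.26, and last 7.53, 7.46 and 7.15. The gap between the sorts narrowed from -3.27 at E12.5 to -1.84 at E15.5 as the FVF- values fell, and the interaction was 1.44 ± 0.22 (0.00026). Fstl1 read 11.55, 11.03 and 11.23 in FVF+ at E12.5, 11.35 and 11.67 at E13.5, 10.77, 10.64 and 10.36 at E14.5 and 10.33, 10.39 and 10.24 at E15.5. In FVF- cells Fstl1 read 13.21 and 13.09, then 13.54 and 13.35, then 13.35, 13.61 and 13.52, and last 13.60, 13.53 and 13.57. Its gap widened from -1.88 to -3.25, with an interaction of -1.37 ± 0.19 (0.00013). That of Bmpr2 was -1.29 ± 0.33 (0.0114), not called without FVF- E12.5 replicate 2 (-1.26, 0.0537).

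Among the other ligands the interaction was called for Bmp2 (-1.23 ± 0.23, adjusted p = 0.00153), Gdf11 (-1.22 ± 0.14, 1.8e-05), Bmp8b (-1.03 ± 0.17, 0.00066), Gdf10 (-0.60 ± 0.19, 0.0351), Gdf7 (0.57 ± 0.15, 0.0162) and Bmp3 (0.54 ± 0.16, 0.0255). Tgfb2, with 1.23 ± 0.38 (0.0307), was not called once any of 8 arrays was left out, and Inhbb (0.64 ± 0.16, 0.00878), Inhbe (0.57) and Inhba (-0.47) were called as well. Bmp4 (0.68 ± 0.48, 0.326) and Bmp6 (-0.50, 0.0926) were the largest ligand values not called. Among the receptors Bmpr1b (0.88 ± 0.17, 0.00168), Tgfbr2 (-0.83 ± 0.15, 0.00136) and Acvr1b (-0.60 ± 0.14, 0.00767) were called, and Tgfbr1 (-0.45) and Acvrl1 (-0.39) were not. Smad7 (-0.52 ± 0.15, 0.0256) was called among the Smads. Of the 4 Id genes 0 were called by limma (19.6% of all genes) and 1 had an unadjusted p under 0.05, Id3 (-0.83 ± 0.31, adjusted p = 0.0682). Id3 was called with array weights (0.0241) or without FVF- E15.5 replicate 2 (0.036). Fstl4 (1.07 ± 0.20, 0.0013), Chrdl1 (-0.94 ± 0.29, 0.0293), Nog (0.43 ± 0.12, 0.0206) and Bmp2k (-1.03 ± 0.20, 0.00193) completed the list, and Ltbp4 (-0.63, 0.0924) was not called.

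**Figure D4:**
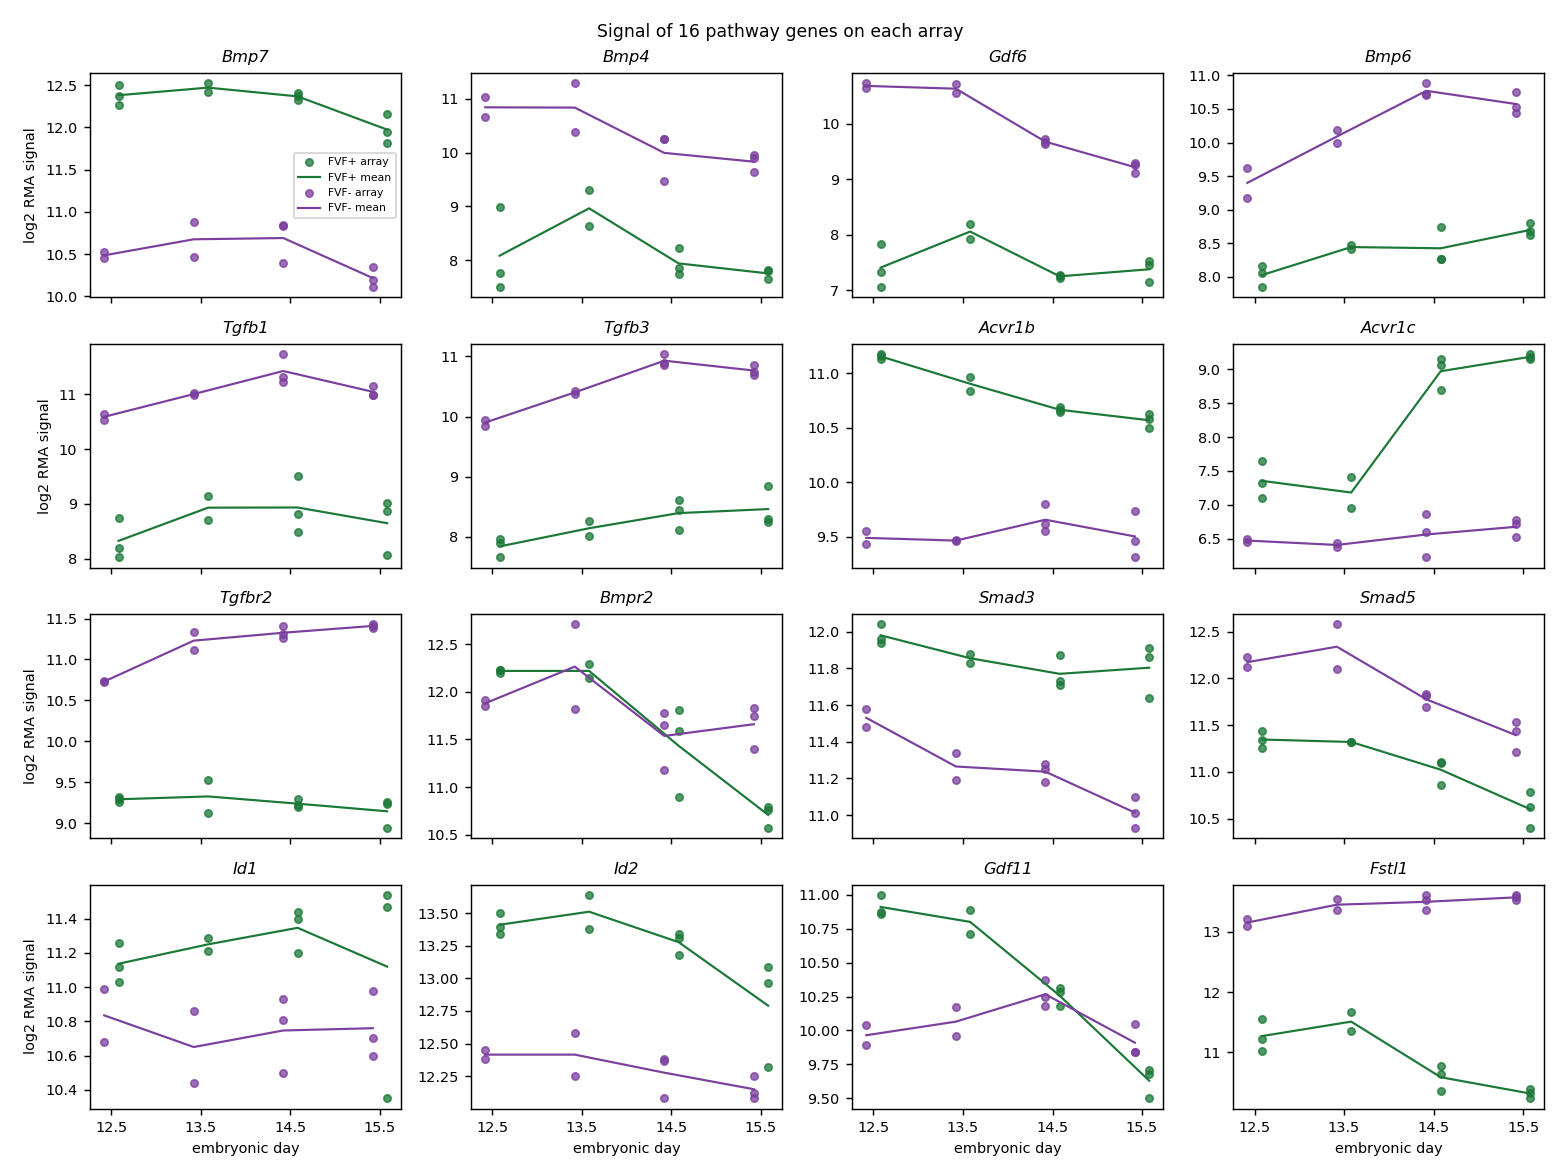
Signal of 16 pathway genes (vertical axis, log2 RMA signal) on each of the 21 arrays by embryonic day, with FVF+ in green and FVF- in purple (points, arrays; lines, group means). Acvr1c steps up in FVF+ between E13.5 and E14.5, Gdf11 crosses from above to below the FVF- arrays, Bmpr2 falls in FVF+, and Gdf6 falls in FVF- from E13.5 on.

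Called in opposite directions between the sorts on different days were 3 members, Gdf11, Bmpr1b and Inhbb (2.02% of all genes), singled out after their values were seen. Gdf11 read 10.87, 10.86 and 11 in FVF+ at E12.5, 10.71 and 10.89 at E13.5, 10.28, 10.31 and 10.18 at E14.5 and 9.50, 9.68 and 9.71 at E15.5. In FVF- cells it read 10.04 and 9.89, then 9.96 and 10.17, then 10.37, 10.25 and 10.18, and last 10.05, 9.84 and 9.84. FVF+ arrays were thus higher at E12.5 and E13.5, level at E14.5 and lower at E15.5, with differences of 0.95, 0.73, -0.01 and -0.28. The E15.5 call was lost without FVF- replicate 1 (adjusted p = 0.107) or FVF+ replicate 1 (0.103) of that day. Bmpr1b, from signals of 5.93 to 6.98, went from -0.51 at E12.5 to 0.37 at E15.5. Inhbb, from signals of 7.20 to 8.06, went from -0.33 to 0.31, and its E12.5 call was lost after either normalization (0.124 and 0.131).

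The daily steps showed when the changes fell. The labels code the arrays by number, except both FVF+ arrays and replicate 2 of FVF- at E13.5, which carry letters, and all arrays of E14.5 carry numbers. A term for the letters thus rests on the 2 FVF- arrays of E13.5 alone, and in FVF+ the letters cannot be told apart from that day. It also makes the errors of the steps from E13.5 larger, and the part of this in the counts was not tested. In FVF+ cells 0 members were called between E12.5 and E13.5 by limma (0.00518% of all genes), with 11 higher and 3 lower at an unadjusted p under 0.05. The 1 member called with array weights was Gdf6 (0.71, adjusted p = 0.0382), and without FVF+ E12.5 replicate 1 it was Bmp4 (1.34, 0.0447) and Gdf6 (0.86, 0.00468). Between E13.5 and E14.5, 7 members were called, 2 higher and 5 lower (8.85% of all genes, 5.88% higher and 2.97% lower). Acvr1c (1.79) and Ltbp3 (0.47 ± 0.14, adjusted p = 0.0424) rose, and the largest falls were in Fstl1 (-0.92 ± 0.14, 0.00058), Gdf6 (-0.81 ± 0.16, 0.00413) and Bmp8b (-0.74 ± 0.13, 0.00132). Without FVF+ E13.5 replicate 2 the count was 3. The Ltbp3 call was lost after either normalization (adjusted p = 0.122 and 0.124) and without FVF+ E14.5 replicate 2 (0.30, 0.166). With a term for letter-coded arrays, Acvr1c alone was called for that step (1.84, adjusted p = 0.0212), and over all genes the count fell from 1707 to 127. Between E14.5 and E15.5, 26 members were called, 17 higher and 9 lower (25.6% of all genes, 14.7% higher and 10.8% lower). After quantile normalization 8 were called (5 higher, 3 lower), and after cyclic loess normalization 8 (4 higher, 4 lower). Over all 19296 genes the count fell from 4931 to 2889 and 2721. Called in all 3 versions were Chrdl2 (0.51), Gdf7 (0.60 ± 0.10, 0.00129), Ltbp3 (0.40), Bmp2k (-0.59), Gdf11 (-0.63 ± 0.09, 0.00053) and Smad7 (-0.43). Bmpr1b (0.53) and Bmpr2 (-0.73 ± 0.22, 0.0241) were called in the values as deposited.

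In FVF- cells, Bmp2 was the 1 member called between E12.5 and E13.5 (0.92 ± 0.19, adjusted p = 0.0256, 1.02% of all genes), and its call was lost without any of the 4 FVF- arrays of those days. Between E13.5 and E14.5, 10 members were called, 6 higher and 4 lower (8.30% of all genes, 5.68% higher and 2.62% lower). Gdf10 (1.10 ± 0.14, 0.00061), Acvrl1 (0.74 ± 0.18, 0.0229) and Bmp6 (0.68 ± 0.15, 0.0149) rose most, and Gdf6 (-0.95 ± 0.16, 0.00376), Tgfbr1 (-0.69 ± 0.21, 0.0495) and Bmpr1a (-0.65 ± 0.19, 0.0432) fell most. Without FVF- E13.5 replicate 2 the count was 1, and without FVF- E14.5 replicate 1 it was 5, with neither Tgfbr1 (-0.41, adjusted p = 0.194) nor Bmpr1a (-0.43, 0.181) called. The Tgfbr1 call was also lost after cyclic loess normalization (0.0531). With the term for letter-coded arrays, Gdf10 alone was called (1.05, adjusted p = 0.0256), and over all genes the count fell from 1602 to 33. Between E14.5 and E15.5, 4 members were called (6.49% of all genes, 1.84% higher and 4.65% lower): Id4 (0.38) and Inhba (0.40 ± 0.09, 0.0133) higher, and Bmp7 (-0.47 ± 0.13, 0.0354) and Gdf11 (-0.36 ± 0.09, 0.0316) lower. Only Id4 was called after both normalizations. Bmp7 and Gdf11 thus had lower signals at E15.5 than at E14.5 in either sort. Neither call of Bmp7 held after both normalizations, and of those of Gdf11 only the FVF+ call did.

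Of 50 further pathway genes listed by function and outside the symbol rule, 47 were measured, and 24 were lower in FVF+ cells, 7 higher and 16 not called (median -0.16), so that 66.0% were called, where 55.7% of all genes were. The lower genes were led by Tgfbi, a TGF-beta-induced matrix protein (-3.77 ± 0.20, adjusted p = 1e-11), the fibrillin Fbn2 (-3.63 ± 0.12, 2.4e-14), the protease Htra1 (-3.46 ± 0.10, 6.1e-15) and the endothelial TGF-beta co-receptor endoglin, Eng (-3.36 ± 0.20, 5.2e-11). The higher genes were led by the secreted nodal and BMP antagonist Cer1 (2.63 ± 0.11, 1.5e-13), the integrin subunit Itgb6 (2.24 ± 0.12, 4.9e-12), the inhibin alpha subunit Inha (0.88 ± 0.06, 1.6e-10) and the BMP co-receptor Rgma (0.69 ± 0.07, 9e-08). Itgb6 forms part of an epithelial integrin that releases TGF-beta from its latent form. From E12.5 to E15.5 in FVF+ cells, 16 of the 47 were called higher and 10 lower, or 55.3% against 46.9% of all genes. As for the members, that split depended on the scaling, and in all 3 versions of the values 6 were called higher and 7 lower. In FVF- cells 8 were called higher and 7 lower (31.9%, against 20.4% of all genes), and the interaction was called for 12 (25.5%, against 19.6%).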

How the data were processed

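RNA of sorted cells was purified, amplified and hybridised to Affymetrix arrays, per the labels' protocols. The authors computed RMA log2 signals with affy 1.44.0, per the submitters' processing notes, and these were used as deposited. The definition of the probe sets is not stated in the labels. Of 23305 probe sets, 20728 had 1 symbol in the platform annotation, 1174 had several and 1403 had none. Signals ran from 4.0 to 15.31, with medians per array of 8.68 to 8.82. Only those with 1 symbol were used, with the highest-mean probe set per gene (19296 genes). Pearson correlations over genes were 0.985 to 0.997 within groups and 0.889 to 0.941 between the sorts.

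All genes were fitted with limma 3.58.1 (R 4.3.3), with a mean for each of the 8 groups over the 21 arrays (13 residual degrees of freedom). P-values were two-sided and adjusted by Benjamini and Hochberg over 19296 genes within each of 14 comparisons. The error of a difference is the moderated standard error (SE). The 65 members were chosen by symbol, and members, lists, roles and alternatives were chosen with earlier results of these data known. Mean sort differences are given for every member, singly or as a range. For the other main comparisons, each role has values for at most 4 called genes in each direction and 2 that were not called, by size, with up to 3 per direction for daily steps; values beyond these numbers belong to genes singled out after their values were seen. Array values are given as ranges for up to 3 members per role and in full for the 4 members with the largest interaction. Other genes given in full were chosen after seeing their values. The fit was tested on simulated data of 19296 genes: of 100 genes shifted by 0.5 log2 units, 92% were recovered as mean sort differences, 49% as FVF+ changes, 43% as FVF- changes and 6% as interactions, and of 100 shifted by 1 log2 unit 99%, 95%, 92% and 69%. No other genes were shifted there, whereas 55.7% of all genes were called between the sorts in these data. The adjusted threshold was thus stricter in the simulation, and these shares do not give the recovery in the real fit. Promoter windows came from RefSeq on GRCm38.p6, which covered 46 of the 65 members. Alternatives were a 2-fold threshold, quantile and cyclic loess normalization, a filter on dim genes, the mean of the probe sets of a gene, array weights, an intensity trend with robust moderation, a replicate block, a term for arrays coded with letters, leaving out E13.5 and leaving out each array in turn. Leaving out 4 arrays together, and both normalizations for the further pathway genes, were added after seeing the data.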

Additional observations from a re-analysis of the deposited data

Results flagged for a closer look

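From E12.5 to E15.5 the sorts changed differently, by the limma interaction term at an adjusted p under 0.05, for 22 members. Values are the log2 change in FVF+ minus that in FVF-. The difference was positive for Acvr1c (1.63), Gdf6 (1.44), Tgfb2 (1.23), Fstl4 (1.07), Bmpr1b (0.88), Inhbb (0.64), Gdf7 (0.57), Inhbe (0.57), Bmp3 (0.54) and Nog (0.43). It was negative for Fstl1 (-1.37), Bmpr2 (-1.29), Bmp2 (-1.23), Gdf11 (-1.22), Bmp8b (-1.03), Bmp2k (-1.03), Chrdl1 (-0.94), Tgfbr2 (-0.83), Acvr1b (-0.60), Gdf10 (-0.60), Smad7 (-0.52) and Inhba (-0.47). The change itself was called in FVF+ and not in FVF- for 14 of the 22. It was called in FVF- and not in FVF+ for 4 (Bmp2, Gdf6, Inhba and Tgfbr2) and in neither sort for Tgfb2. Over all genes that change was called for 46.9% in FVF+ and 20.4% in FVF-, and FVF- had fewer arrays at E12.5. Whether the split among the 22 differs from that among all genes was not tested. Gdf10 was called higher in either sort. Fstl1 and Fstl4 were called in either sort, in opposite directions, but the FVF- call of Fstl1 was lost after quantile normalization (adjusted p = 0.065) and the FVF+ call of Fstl4 after either normalization (0.299 and 0.342). Without FVF- E12.5 replicate 2, 12 interactions were called, 5 positive and 7 negative.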

How the results depend on the processing

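No value changed direction while called under any alternative. The mean sort difference was called for 49 members and for 46 to 50 with 1 array left out, and those within the 4 days, from E12.5 on, for 34 to 41, 32 to 38, 38 to 46 and 40 to 44. The FVF+ change from E12.5 to E15.5 gave 33 to 44, the FVF- change 13 to 19 and the interaction 12 to 24. The FVF+ daily steps gave 0 to 2, 3 to 9 and 11 to 28 and the FVF- steps 0 to 3, 1 to 13 and 1 to 5. A 2-fold threshold, applied to the same calls, left 19 members for the mean sort difference and 17, 20, 20 and 20 by day, 5 for the change in FVF+, 5 in FVF-, 10 for the interaction, 0, 1 and 0 for the FVF+ steps and 0, 1 and 0 for the FVF- steps. The filter on dim genes, which keeps 42 members, gave 28 for the FVF+ change, 14 for the interaction, 11 for the FVF+ step to E15.5 and 0 for the FVF- step to E13.5. Quantile and cyclic loess normalization each gave 8 for the FVF+ step to E15.5 and 1 for the FVF- step to E15.5, and the cause was not tested. Over all genes that FVF+ step gave 2889 and 2721, and 4931 as deposited. The FVF- step gave 855 and 625 over all genes, and 1253 as deposited. With array weights the FVF+ steps to E13.5 and E14.5 gave 1 and 13 and the FVF- step to E14.5 gave 3. A term for letter-coded arrays, which at E13.5 leaves few arrays per group, gave 1 for either step to E14.5 and 2 for the FVF- step to E13.5. Without the 4 arrays together the FVF+ step to E14.5 gave 4 and the FVF- steps 4, 18 and 2. The FVF+ step to E15.5 fell to 11 without FVF+ E14.5 replicate 3, to 16 without E14.5 replicate 1 or E15.5 replicate 1, and to 17 without E15.5 replicate 3. The FVF- step to E15.5 gave 2 without any 1 of the FVF- E14.5 arrays or E15.5 replicate 2, and 1 without E15.5 replicate 1 or 3.

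Of 10 same-numbered pairs of FVF+ and FVF- arrays, 3 had deviations from the group mean correlated over 0.1, with a range from -0.368 to 0.488. With 2 or 3 arrays per group the deviations depend on one another. The correlations therefore cannot decide whether equal replicate numbers mark paired samples. With a replicate block the mean sort difference was called for 50 members, the same fit giving 43 for the FVF+ change, 19 for the FVF- change and 23 for the interaction. The limits are the small groups, with 2 arrays in 3 of the 8, and dim signals: 23 members were never above the median signal in any group. The test on simulated data found 6% of 0.5-unit interactions, but few genes differed there, so that share does not carry over to the real fit.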
